A study of Mus musculus with 45 samples.

Results

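The genes that make, take up, store and export cholesterol were followed through mouse embryonic fibroblasts (MEFs) treated with a conjugated polyunsaturated fatty acid. The set is the 30 rows, of 57010 gene rows in the deposited count table, whose symbol is on a list of cholesterol genes, and all 30 passed the filter on low counts. It holds 7 enzymes of the mevalonate pathway (Acat2, Hmgcs1, Mvk, Pmvk, Mvd, Idi1 and Fdps), 11 enzymes of the sterol branch (Fdft1, Sqle, Lss, Cyp51, Tm7sf2, Msmo1, Nsdhl, Hsd17b7, Ebp, Sc5d and Dhcr7), and Srebf2, Insig1 and Stard4. Those 21 genes are called SREBP2 targets here. The others are 3 targets of the liver X receptors (LXR; Abca1, Abcg1 and Mylip), the receptor genes Nr1h2 and Nr1h3, and Soat1, Insig2, Scap and Ggps1.

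All cells were wild-type MEFs, a mixed culture of connective-tissue cells from embryos, and total RNA was sequenced from 45 libraries in 15 groups of 3. Cells were uninduced, or had been treated with 200 µM H2O2 or 2 µM etoposide (which traps topoisomerase II on DNA) for 24 h to induce senescence and then kept for 5 days. Each of these 3 states received ethanol vehicle, α-eleostearic acid (ESA), its methyl ester (ESA-Me), or either compound after 1 h of 2 µM ferrostatin-1 (Fer-1), a radical-trapping inhibitor of lipid peroxidation and ferroptosis, and exposure to the compounds lasted 12 h. Sample labels give 2 µg/mL for both compounds but their protocol text has ESA at 10 µg/mL and its ester at 20 µg/mL, so values for the compounds are set side by side and not compared. There is no group with Fer-1 alone.

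Libraries held 13.5 to 59.6 megareads (median 22.7), and mitochondrial transcripts took 0.879% to 2.21% of counts. Fibroblast markers (Col1a1, Col1a2, Col3a1, Pdgfra, Pdgfrb, Thy1, Vim and Dcn) summed to between 11968 and 22927 CPM (counts scaled to a fixed library total, with TMM scaling) in every library, with Pdgfra at 0.755 to 8.76 CPM and Dcn at 2.80 to 82.7 CPM. Macrophage markers summed to 30.9 to 238 CPM, with Lyz2 at 26.4 to 183 CPM and Ptprc at most 4.81 CPM. Neural markers summed to 271 to 1690 CPM, with Nes at 179 to 1621 CPM. Skeletal muscle markers summed to 10.8 to 85.3 CPM and hepatocyte markers to at most 1.24 CPM. Within a state, libraries of the same replicate number deviated from their group means together (r across genes 0.259 to 0.820; at most 0.0595 for different numbers), so the tests within a state used the number as a block. The same number also marked libraries that moved together in the H2O2 and etoposide states (r 0.524 to 0.762), so results of the induced states are not independent of each other. The labels do not say whether replicates were separate cultures, and p-values therefore measure only the spread between these samples. In tests with the block this is the spread left after differences between replicate numbers are taken out.

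Cholesterol is built from acetyl-CoA through mevalonate and squalene. When membranes hold enough sterol, SCAP and INSIG proteins keep the transcription factor SREBP2 (Srebf2) in the endoplasmic reticulum. When sterol falls, SREBP2 is carried to the Golgi and cleaved, and its released part switches on nearly every gene of the pathway together with the factors NF-Y and Sp1. LXR receptors respond in the opposite sense: bound by oxysterols, they raise exporters such as ABCA1 and ABCG1 and the ubiquitin ligase MYLIP, which removes lipoprotein receptors from the surface.

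Promoter windows from RefSeq (GRCm38.p6; 250 bases before to 50 after the start of transcription) were matched by symbol for 25 of the 30 genes, among them 17 of 21 SREBP2 targets and 2 of 3 LXR targets. They are shown for 5 SREBP2 targets that were lower under ESA and for Abca1, which moved the other way. Capitals mark CCAAT on either strand (so also ATTGG), the letters bound by NF-Y, and TCACNCCAC on either strand, the core of a sterol regulatory element; the motifs do not overlap in these windows. Sequences run 5′ to 3′ on the gene's strand.

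Hmgcs1, chr13:119690101-119690400, plus strand: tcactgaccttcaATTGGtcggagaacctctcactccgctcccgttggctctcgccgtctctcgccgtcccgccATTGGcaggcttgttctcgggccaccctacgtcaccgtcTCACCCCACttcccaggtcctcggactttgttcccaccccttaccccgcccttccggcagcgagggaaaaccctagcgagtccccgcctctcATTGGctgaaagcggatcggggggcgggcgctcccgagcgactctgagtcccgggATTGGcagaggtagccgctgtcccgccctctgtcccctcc
Mvk, chr5:114444019-114444318, plus strand: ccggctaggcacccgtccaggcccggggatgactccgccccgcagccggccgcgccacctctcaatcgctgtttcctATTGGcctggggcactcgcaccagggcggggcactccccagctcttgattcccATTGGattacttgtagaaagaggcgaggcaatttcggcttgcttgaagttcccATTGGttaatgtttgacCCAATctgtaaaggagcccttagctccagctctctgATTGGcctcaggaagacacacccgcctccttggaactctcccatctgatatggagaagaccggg
Msmo1, chr8:64733529-64733828, minus strand: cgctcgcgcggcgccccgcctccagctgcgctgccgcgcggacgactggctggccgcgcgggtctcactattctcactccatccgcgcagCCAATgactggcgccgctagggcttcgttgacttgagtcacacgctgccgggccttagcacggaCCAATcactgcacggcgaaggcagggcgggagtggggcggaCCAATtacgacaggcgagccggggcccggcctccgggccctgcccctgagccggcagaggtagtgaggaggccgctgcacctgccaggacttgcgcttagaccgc
Cyp51, chr5:4104648-4104947, minus strand: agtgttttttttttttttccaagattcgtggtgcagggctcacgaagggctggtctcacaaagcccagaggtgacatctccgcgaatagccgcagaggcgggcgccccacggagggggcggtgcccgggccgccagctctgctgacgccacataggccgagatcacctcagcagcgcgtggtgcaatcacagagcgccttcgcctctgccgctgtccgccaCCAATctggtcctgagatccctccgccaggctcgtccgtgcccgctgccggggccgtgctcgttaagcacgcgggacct
Insig1, chr5:28071162-28071461, plus strand: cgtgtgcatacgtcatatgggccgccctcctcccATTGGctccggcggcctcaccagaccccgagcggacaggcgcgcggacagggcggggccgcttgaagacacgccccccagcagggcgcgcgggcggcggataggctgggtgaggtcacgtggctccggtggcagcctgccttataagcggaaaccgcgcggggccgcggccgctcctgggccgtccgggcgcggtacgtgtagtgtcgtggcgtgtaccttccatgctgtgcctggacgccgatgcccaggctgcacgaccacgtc
Abca1, chr4:53159846-53160145, minus strand: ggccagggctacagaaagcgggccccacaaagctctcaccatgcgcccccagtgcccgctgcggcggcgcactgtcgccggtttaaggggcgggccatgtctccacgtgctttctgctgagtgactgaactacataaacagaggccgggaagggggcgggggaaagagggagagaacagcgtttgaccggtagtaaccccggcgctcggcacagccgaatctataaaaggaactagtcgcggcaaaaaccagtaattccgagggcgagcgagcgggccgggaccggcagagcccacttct

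CCAAT on either strand was in at least 1 window of 16 of the 17 SREBP2 targets with a window (16 of their 20 windows), beside 37.4% of all 32851 windows and 37.5% of the windows of genes tested. Acat2 was the exception. The Mvk window held 5 matches, Hmgcs1 4, Msmo1 3, and Cyp51 and Insig1 1 each. Of the genes that are not SREBP2 targets, Abca1 had none, Mylip, Insig2 and Ggps1 had 3 in a window and Soat1 had 1. The sterol element TCACNCCAC was matched in 1 window, that of Hmgcs1, where it starts 137 bases before the start of transcription, beside 1.24% of all windows. No mismatch was allowed in this search, so variant forms of the element in the other windows would be missed. GGGCGG on either strand, the Sp1 letters, was in 17 of the 20 windows, beside 35.7% of all windows and 60.8% of those of genes tested. A pair of AGGTCA half-sites 4 bases apart, the form LXR binds, was looked for on either strand with up to 2 mismatches, and was found in neither of the LXR targets' windows, in 1 Dhcr7 window and in 3.02% of all windows. These are matches of letters, not measured sites. LXR pairs with more than 2 mismatches were not looked for. A window without a match, that of Abca1 included, may therefore still hold a site.

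In vehicle-treated uninduced cells, levels per exonic length (RPKM, CPM divided by the kilobases of GENCODE M21 exons; mean ± SD, n = 3) ran over a wide range. Hmgcs1, which joins acetyl groups into HMG-CoA, was highest at 23.9 ± 3.71 RPKM. It was followed by the lanosterol demethylase gene Cyp51 at 20.4 ± 3.81, the farnesyl diphosphate synthase gene Fdps at 18.9 ± 5.16 and Srebf2 at 16.7 ± 1.74 RPKM. Each overlapped the next in this order, although every Hmgcs1 library was above every Srebf2 library. Nr1h2, the LXRβ gene, stood at 12.8 ± 0.973 RPKM and Nr1h3, the LXRα gene, at 0.272 ± 0.105 RPKM, with no overlap. Of the exporters, Abca1 was at 1.32 ± 0.563 RPKM and Abcg1 at 0.0914 ± 0.0371 RPKM, the last of the 30. The other SREBP2 targets lay between Tm7sf2, a sterol C14-reductase gene, at 0.744 ± 0.273 RPKM and Sqle, the squalene epoxidase gene, at 11.8 ± 1.13 RPKM.

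**Figure D1:**
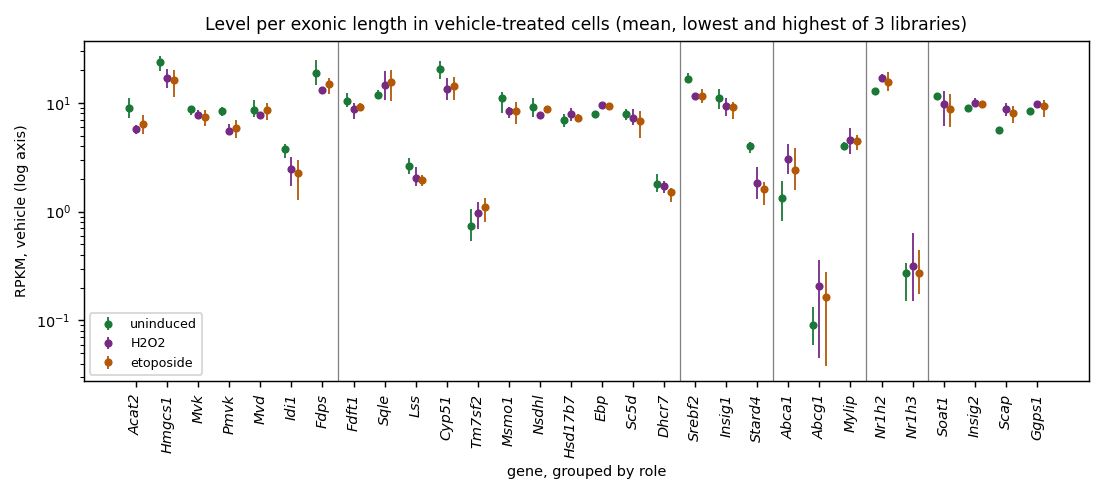
Level of each of the 30 genes per exonic length (RPKM, log axis) in vehicle-treated cells, grouped by role along the horizontal axis; points are means of 3 libraries, bars run from the lowest to the highest library, and colours are the 3 states. Hmgcs1 is highest in each state and Abcg1 is lowest, while Nr1h2 lies far above Nr1h3.

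ESA lowered the cholesterol-making pathway in uninduced cells. Of the 21 SREBP2 targets, 19 were lower under ESA than under vehicle and none was higher (edgeR quasi-likelihood test, Benjamini-Hochberg adjusted p under 0.05), where 10.5% of all 16194 genes tested were called lower and 9.16% higher. Their median log2 fold change was -0.55, against -0.02 for all genes tested. Both arms took part: 5 of the 7 mevalonate enzymes and 11 of the 11 sterol-branch enzymes were lower. Each of the 21 genes was lower in 3 of 3 pairs of libraries, including Mvd, the mevalonate diphosphate decarboxylase gene, at -0.32 (adjusted p = 0.0998) and Pmvk, the phosphomevalonate kinase gene, at -0.22 (adjusted p = 0.289), which did not pass. In bulk RNA, fewer cells of a type and less RNA per cell cannot be told apart.

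Stard4, a carrier of cholesterol between membranes, measured 23.2, 24.2 and 19.5 CPM in vehicle replicates 1, 2 and 3, and 16.2, 11.1 and 11.3 CPM under ESA. The groups did not overlap, and replicate 1 fell least. Its log2 fold change was -0.81 ± 0.14 (SE; adjusted p = 1.80e-04), which left 57.1% of the vehicle level. Hmgcs1 went from 116, 123 and 90.5 CPM to 86.1, 49.4 and 61.7 CPM, again without overlap, and its log2 fold change was -0.77 ± 0.14 (SE; adjusted p = 3.50e-04). Acat2, whose enzyme makes the acetoacetyl-CoA that HMGCS1 uses, went from 21.8, 28 and 18.5 CPM to 16.1, 14.9 and 10.9 CPM, a change of -0.71 ± 0.12 (SE; adjusted p = 1.64e-04). Every ESA library of Acat2 lay below every vehicle library. How reads shared by Acat2 and its close paralog Acat3 were counted is not given in the sources used here, so its level is uncertain.

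Among the sterol-branch enzymes, Cyp51 was 89.8, 107 and 73.5 CPM under vehicle and 68.1, 49.9 and 48.8 CPM under ESA. Again no ESA library reached the vehicle range, and Cyp51 fell by 0.70 ± 0.11 on the log2 scale (adjusted p = 6.91e-05). Fdft1, squalene synthase and the first enzyme committed to sterols, was 41.6, 51.9 and 38.2 CPM under vehicle and 30.4, 27.9 and 24.6 CPM under ESA, likewise apart, with a log2 fold change of -0.67 ± 0.10 (SE; adjusted p = 3.55e-05). The C4-demethylation genes Msmo1 and Nsdhl changed by -0.63 ± 0.14 and -0.55 ± 0.10 (log2), and the lanosterol synthase gene Lss by -0.45 ± 0.10. The smallest called falls of the branch were those of Hsd17b7 at -0.32 (adjusted p = 0.00515) and Ebp, the sterol isomerase gene, at -0.32 (adjusted p = 0.0128). Sqle, Dhcr7 and Sc5d fell by 0.40, 0.40 and 0.39, and Tm7sf2 by 0.52 with an adjusted p of 0.0497.

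In the mevalonate arm the isopentenyl isomerase gene Idi1 changed by -0.74 ± 0.19 (SE; adjusted p = 0.00565), Mvk by -0.60 ± 0.13 and Fdps by -0.55 ± 0.10 (log2). Ggps1 makes geranylgeranyl diphosphate, the branch that leads away from sterols, and stood at 0.19 (adjusted p = 0.300). It was called higher by edgeR with the uninduced libraries fitted alone (adjusted p = 0.0318). The feedback genes moved with the enzymes. Insig1, which encodes a sterol-induced anchor of SREBP2 and is itself an SREBP2 target, was 35.4, 41.1 and 26.9 CPM under vehicle and 24.6, 23.7 and 18.2 CPM under ESA, with no overlap, at -0.63 ± 0.14 (SE; adjusted p = 0.00144). Srebf2 itself was 117, 134 and 109 CPM against 90.4, 101 and 79.7 CPM, so the groups were apart, and changed by -0.41 ± 0.11 (SE; adjusted p = 0.00812). The other anchor gene, Insig2, was at -0.01 (adjusted p = 0.946), and Scap, the escort, at 0.16 (adjusted p = 0.327); neither passed.

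These calls rest on the pairing of libraries by replicate number. Without the replicate block 0 of the 21 were called by edgeR (13 were lower at an unadjusted p under 0.05, and the lowest adjusted p was 0.112), while DESeq2 with the block called 19 lower. Over all genes DESeq2 called 1762 lower and 1567 higher. Leaving out single uninduced libraries gave 14 to 18 calls. Calls lost in this way were Tm7sf2 (without vehicle 1 or 2, or ESA 1 or 2), Dhcr7 (vehicle 2 or 3, or ESA 3), Ebp (vehicle 3 or ESA 1), Hsd17b7, Idi1 and Sc5d (vehicle 2 or ESA 2) and Srebf2 (vehicle 3).

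The 3 LXR targets did not move as one. Abca1, the exporter of cholesterol and phospholipid to lipid-poor particles, was 12.8, 8.43 and 20.0 CPM under vehicle and 19.4, 15.4 and 29.2 CPM under ESA. The ranges overlap because replicate 3 was highest in both groups, but ESA was higher in 3 of 3 pairs, and the log2 fold change was 0.67 ± 0.11 (SE; adjusted p = 8.05e-05). Abcg1, the exporter to mature lipoprotein particles, was 0.609, 0.430 and 0.963 CPM under vehicle and 0.563, 1.83 and 1.37 CPM under ESA, near the bottom of the measurable range and overlapping. At 0.93 ± 0.36 (SE; adjusted p = 0.0626) it was not called, though it was called without ESA replicate 1. Mylip went the opposite way, from 14, 12.2 and 12.9 CPM to 10.2, 7.98 and 9.06 CPM with no overlap, and changed by -0.52 ± 0.11 (SE; adjusted p = 6.97e-04). The receptor genes were not called, Nr1h2 at 0.28 (adjusted p = 0.0668) and Nr1h3 at -0.18 (adjusted p = 0.819), although Nr1h2 was called without vehicle replicate 3 or ESA replicate 1. With the uninduced libraries fitted alone, edgeR called Abcg1 and Nr1h2 higher (adjusted p = 0.0387 and 0.0156). Without the block no member of the 30 was called, Abca1, Mylip and Soat1 included.

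Soat1, whose enzyme esterifies cholesterol for storage in droplets, rose. It measured 110.1, 116 and 113 CPM under vehicle and 153, 229.7 and 169.8 CPM under ESA. All 3 ESA libraries lay above all vehicle libraries, which were within a few CPM of each other, and the log2 fold change was 0.69 ± 0.14 (SE; adjusted p = 5.13e-04). Of 38 further genes of sterol regulation, transport and modification, 2 were higher and 3 lower under ESA. Over all genes tested the shares were 9.16% and 10.5%, and neither count exceeded its share. Higher was Ch25h, the cholesterol 25-hydroxylase gene that makes the oxysterol 25-hydroxycholesterol, at 8.25, 8.40 and 8.49 CPM under vehicle and 20.6, 32.8 and 29.2 CPM under ESA. Its lowest ESA library was above every vehicle library, with a log2 fold change of 1.70 ± 0.24 (SE; adjusted p = 1.36e-05). The other was Soat2, the second esterifying enzyme, at 0.92 ± 0.28 (SE; adjusted p = 0.0158). The lower genes were the sterol carrier Stard5 at -0.43 (adjusted p = 0.0220), the lamin B receptor and sterol C14-reductase gene Lbr at -0.40 (adjusted p = 0.00320) and the mitochondrial thiolase gene Acat1 at -0.26 (adjusted p = 0.00614).

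Markers of cell type moved in the same libraries. Of 8 fibroblast markers 4 were lower under ESA (Col1a1 -0.39, Col1a2 -0.37, Col3a1 -0.57 and Pdgfrb -0.56, log2), and the list summed to 19120 to 22676 CPM under vehicle and 15525 to 18882 CPM under ESA. Of 6 macrophage markers 2 were higher (Cd68 0.82 and Lyz2 0.98), and that list summed to 50.2 to 127 CPM under vehicle and 134 to 164 CPM under ESA. Over all genes tested 10.5% were lower and 9.16% higher. The macrophage sum is mostly Lyz2, with medians over all libraries of 63.8 CPM for Lyz2 and 89.3 CPM for the list. Their part in the results on cholesterol genes was not tested.

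**Figure D2:**
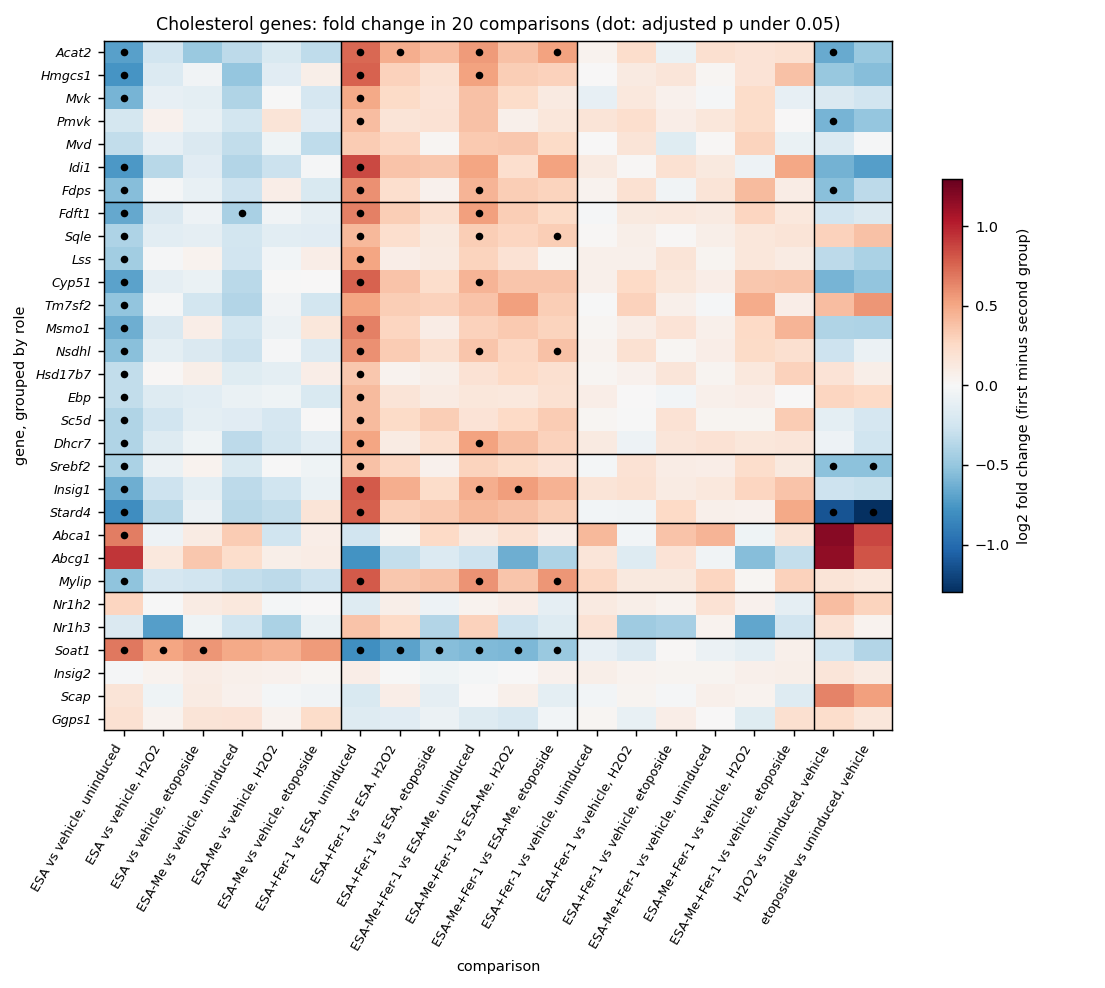
Log2 fold change (colour, first group minus second) of each of the 30 genes, grouped by role on the vertical axis, in the comparisons on the horizontal axis; a dot marks an adjusted p under 0.05 from edgeR's quasi-likelihood test. The first column is blue for all 21 SREBP2 targets and red for Abca1 and Soat1, the ESA plus Fer-1 against ESA column for uninduced cells shows the opposite colours, and the columns of compound plus Fer-1 against vehicle have no dot.

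With Fer-1 given before ESA, the synthesis genes stood above their level under ESA alone. In uninduced cells 19 of 21 SREBP2 targets were higher under ESA plus Fer-1 than under ESA alone and none was lower (10.3% and 9.55% of all genes tested). The median log2 difference was 0.52 for the list and 0.02 for all genes tested. Tm7sf2 at 0.51 (adjusted p = 0.0602) and Mvd at 0.33 (adjusted p = 0.101) did not pass. This comparison shares the ESA libraries with the one above, so its direction is not independent evidence.

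With ESA plus Fer-1, Stard4 was 25.4, 20.0 and 20.1 CPM, within or above the vehicle values of 23.2, 24.2 and 19.5 CPM and above all 3 ESA libraries, a difference from ESA of 0.77 ± 0.15 (SE; adjusted p = 3.01e-04). Hmgcs1 was 134, 104 and 95.9 CPM and differed from ESA by 0.77 ± 0.14 (SE; adjusted p = 3.36e-04). Both genes thus had no overlap between the groups with and without Fer-1. Idi1 had the largest difference among the 21 at 0.86 ± 0.19 (SE; adjusted p = 0.00180), and Insig1, at 44.1, 38.3 and 32.8 CPM, rose by 0.79 ± 0.14 (SE; adjusted p = 1.49e-04). Cyp51, Acat2, Fdft1 and Msmo1 rose by 0.76, 0.75, 0.66 and 0.65 (log2). Without the replicate block 0 of 21 were called by edgeR (18 higher at an unadjusted p under 0.05, lowest adjusted p 0.111), whereas DESeq2 called 19 (1761 of all genes higher and 1556 lower). Leaving out single libraries of the state gave 16 to 19 calls.

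Mylip and Soat1 changed in the direction opposite to that under ESA, while the exporters did not pass in the model of all 45 libraries. Mylip was 16, 15.4 and 15.8 CPM with Fer-1, above every ESA library, a difference of 0.80 ± 0.11 (SE; adjusted p = 6.86e-06). Soat1 was 101, 104 and 108 CPM, below every ESA library and close to vehicle, a difference of -0.80 ± 0.14 (SE; adjusted p = 1.14e-04). Abca1 was 15, 12.1 and 28.2 CPM with Fer-1 and overlapped both other groups, and its difference from ESA was -0.25 (adjusted p = 0.109). It was called lower by edgeR with the uninduced libraries fitted alone (adjusted p = 0.0274). Abcg1 differed by -0.78 (adjusted p = 0.145). Of the 38 further genes, 2 were lower, Ch25h at -1.97 ± 0.25 and Soat2 at -0.91, and 3 were higher, Lbr at 0.45, Stard5 at 0.41 and Acat1 at 0.24. Neither count exceeded the share over all genes tested, 9.55% lower and 10.3% higher. Fibroblast markers summed to 18485 to 22927 CPM and macrophage markers to 48.6 to 125 CPM with ESA plus Fer-1, and their part was again not tested.

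Set against vehicle, ESA plus Fer-1 gave no call among the 30 genes in uninduced cells, by edgeR or by DESeq2, where edgeR called 0.00618% of all genes tested in either direction. Of the 21 SREBP2 targets 0 reached an unadjusted p under 0.05, and their median log2 fold change was 0.02. For ESA-Me plus Fer-1 in the same cells the count was also 0, beside 0% of all genes, with 0 at an unadjusted p under 0.05 and a median of 0.08. With the uninduced libraries fitted alone, edgeR called Abca1 higher than under vehicle for ESA-Me plus Fer-1, at 0.44 (adjusted p = 0.0431). These counts do not show that the levels were equal.

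ESA-Me gave changes of the same sign in uninduced cells. All 21 SREBP2 targets had a negative log2 fold change against vehicle, with a median of -0.32 (-0.01 for all genes), but Fdft1 alone was called, at -0.42 ± 0.10 (SE; adjusted p = 0.0323), where 0.494% of all genes were called lower and 0.914% higher. At an unadjusted p under 0.05, 15 of the 21 were lower, and DESeq2 called 2 (187 of all genes lower and 268 higher). With the uninduced libraries fitted alone, 10 were called, a fit for which no share over all genes is given. The Fdft1 call was lost without vehicle replicate 2 or 3, without ESA-Me replicate 2 or 3, and without the block. The values were 39.8, 33.5 and 26.3 CPM under ESA-Me and 41.6, 51.9 and 38.2 CPM under vehicle, with overlap between the groups. Hmgcs1 was 93.4, 67.8 and 73.8 CPM and stood at -0.50 (adjusted p = 0.0694). Stard4, at 20.4, 17.3 and 14.8 CPM, stood at -0.36 (adjusted p = 0.204). Neither passed, and in both genes replicate 1 was highest.

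The storage and export genes under ESA-Me did not pass either in the model of all 45 libraries. Soat1 was 134, 195 and 153 CPM, above every vehicle library, at 0.50 (adjusted p = 0.0555), and DESeq2 called it higher. Abca1 was at 0.33 (adjusted p = 0.129) and Mylip at -0.31 (adjusted p = 0.137). With the uninduced libraries fitted alone, edgeR called Soat1, Abca1 and Mylip (adjusted p = 0.00556, 0.0135 and 0.0228). Ch25h was called, at 14.4, 21.3 and 24.5 CPM and a log2 fold change of 1.24 ± 0.24 (SE; adjusted p = 0.00730). The ESA and ESA-Me comparisons share the vehicle libraries, and their doses may differ, so the values of the compounds stand side by side without a test.

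Fer-1 added to ESA-Me raised 9 of the 21 SREBP2 targets and lowered none (1.64% and 1.87% of all genes tested; medians 0.38 and 0.02). They were Acat2 at 0.55, Fdft1 at 0.54, Dhcr7, whose enzyme makes cholesterol in the last step of the Kandutsch-Russell branch, at 0.53, Hmgcs1 at 0.52, Insig1 at 0.48, Cyp51 at 0.44, Fdps at 0.44, Nsdhl at 0.36 and Sqle at 0.32. At an unadjusted p under 0.05, 19 of 21 were higher. Fdft1 was 55.1, 51.2 and 38 CPM with Fer-1, each above the ESA-Me library of its number although the ranges touch, and Acat2 was 27.2, 30.2 and 21.4 CPM against 19.1, 19.8 and 14.8 CPM. Mylip rose by 0.59 ± 0.10 (SE; adjusted p = 0.00150) and Soat1 changed by -0.57 ± 0.13 (SE; adjusted p = 0.0143). The count of SREBP2 targets was the least firm of those with several calls: leaving out single libraries of the state left 0 to 4, the fit without the block 0 (6 at an unadjusted p under 0.05), and the state fitted alone 16.

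**Figure D3:**
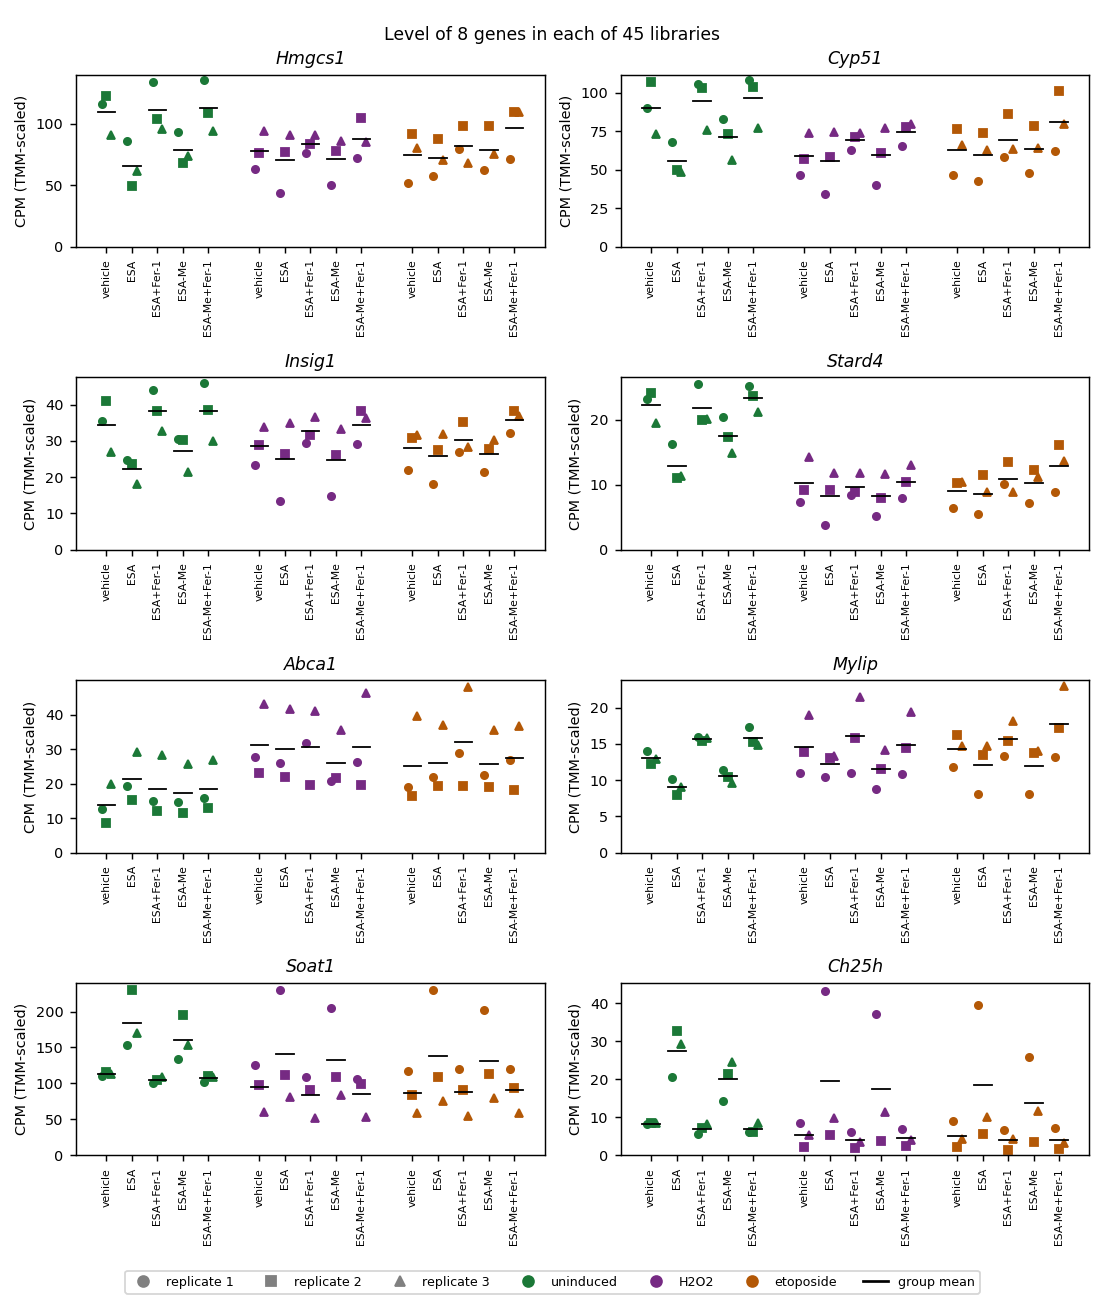
Level (CPM on TMM-scaled totals) of 6 of the SREBP2 and LXR target genes and of Soat1 and Ch25h in each of the 45 libraries; colours are states, symbols are replicate numbers, and lines are group means. In uninduced cells Hmgcs1, Cyp51, Insig1, Stard4 and Mylip drop under ESA and return with Fer-1 while Soat1 and Ch25h do the opposite, and in both induced states replicate 1 has the highest Soat1 and Ch25h values under ESA.

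Without a compound, a few SREBP2 targets were lower in cells induced to senescence. Induced cells were kept for 5 days after the inducer, and replicate numbers did not pair them with uninduced cells. The inducer, time in culture and preparation therefore cannot be told apart in comparisons between these states. Under vehicle, 5 of 21 SREBP2 targets were lower in H2O2-induced than in uninduced cells and none was higher (8.56% and 8.91% of all genes tested; medians -0.26 and 0.03). In etoposide-induced cells 2 of 21 were lower and none higher (8.52% and 9.17%; medians -0.29 and 0.03), a count close to the share over all genes. Stard4 led both, with 7.29, 9.23 and 14.3 CPM in H2O2-induced and 6.41, 10.3 and 10.5 CPM in etoposide-induced cells against 23.2, 24.2 and 19.5 CPM in uninduced cells. All induced libraries of Stard4 lay below all uninduced ones, and the log2 differences were -1.12 ± 0.32 (SE; adjusted p = 0.0129) and -1.29 ± 0.32 (SE; adjusted p = 0.00436). Srebf2 was the other gene called in both, at 75.5, 85.6 and 87.1 CPM and 81, 95.1 and 72.2 CPM, clear of the uninduced range, with -0.53 (adjusted p = 0.0271) and -0.53 (adjusted p = 0.0270).

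With H2O2 the called genes also included Acat2 at -0.65 (adjusted p = 0.0169), Pmvk at -0.60 (adjusted p = 0.0311) and Fdps at -0.55 (adjusted p = 0.0407). With the vehicle groups fitted alone in edgeR, Acat2, Pmvk and Fdps were not called (adjusted p = 0.0574, 0.0533 and 0.106). Leaving out single libraries gave 0 to 5 calls for H2O2 and 1 to 3 for etoposide, so these counts depend on single libraries. Abca1 was higher in the mean but varied between replicates, at 27.7, 23.1 and 43.1 CPM with H2O2 and 19, 16.4 and 39.5 CPM with etoposide against 12.8, 8.43 and 20.0 CPM. The H2O2 libraries lay above the uninduced ones and the etoposide libraries overlapped them. Its differences of 1.19 ± 0.45 (SE; adjusted p = 0.0640) and 0.87 ± 0.45 (SE; adjusted p = 0.191) were not called by edgeR; DESeq2 called the first. Abcg1 stood at 1.15 (adjusted p = 0.455) and 0.82 (adjusted p = 0.614), and Scap at 0.64 (adjusted p = 0.0733) and 0.53 (adjusted p = 0.148). No member was called higher in this fit. Scap was called higher with H2O2 when the vehicle groups were fitted alone (adjusted p = 0.0275), and Abca1 without uninduced vehicle replicate 3 (adjusted p = 0.0391). With a block shared by all states, which assumes the same number marks the same preparation in each state, Abca1, Scap and Nr1h2 were called higher with H2O2 (adjusted p = 1.55e-09, 0.0266 and 0.0438) and Abca1 with etoposide (8.07e-07). Replicate numbers did not pair libraries between uninduced and induced cells (r -0.216 to 0.0525), so this comparison had no block.

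Of the 38 further genes, 4 were lower in H2O2-induced cells, led by Pdss1, which builds the ubiquinone side chain, at -1.19, Lbr at -1.14 and Scarb1, a receptor for high-density lipoprotein, at -0.86. Higher were 4, among them Nceh1, a cholesteryl ester hydrolase gene, at 0.66, and Npc2 and Npc1, whose proteins carry cholesterol out of lysosomes, at 0.60 and 0.35. Etoposide-induced cells had 4 lower, with Pdss1 at -1.24, Lbr at -1.06 and Scarb1 at -0.78, and 3 higher, Npc2 at 0.61, the farnesyltransferase subunit gene Fnta at 0.40 and Npc1 at 0.32. Over all genes tested 8.56% were lower and 8.91% higher with H2O2, and 8.52% and 9.17% with etoposide. The counts of the further genes were close to these shares.

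In induced cells the fall of the synthesis genes under ESA did not pass. With H2O2, 0 of 21 SREBP2 targets were called by edgeR (0.241% of all genes tested were lower and 1.13% higher) and 0 by DESeq2, with 2 lower at an unadjusted p under 0.05. The signs were negative for 19 of 21 and the median was -0.14 (-0.01 for all genes). With etoposide, edgeR again called 0 (0.0494% lower and 0.482% higher), DESeq2 called 1, and 1 was lower at an unadjusted p under 0.05. There 17 of 21 were negative and the median was -0.10 (-0.01 for all genes). Without etoposide vehicle replicate 3 the etoposide count was 3.

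The replicates of the induced states differed in their response. Stard4 in H2O2-induced cells was 7.29, 9.23 and 14.3 CPM under vehicle and 3.81, 9.17 and 11.8 CPM under ESA, and Hmgcs1 was 63, 76.4 and 94 CPM and 43.5, 77.3 and 91 CPM. In both genes the drop was largest in replicate 1, and the groups overlapped. Insig1 was 23.5, 28.8 and 33.8 CPM and 13.3, 26.5 and 34.9 CPM, lowest again in ESA replicate 1. In etoposide-induced cells Stard4 was 6.41, 10.3 and 10.5 CPM and 5.46, 11.5 and 8.90 CPM, with replicate 2 higher under ESA and the others lower. Acat2 there was 16.1, 19.5 and 13.1 CPM and 7.69, 13.3 and 13.7 CPM, lower in replicates 1 and 2 and higher in replicate 3, at -0.48 (adjusted p = 0.0880).

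Soat1 was the member called under ESA in the induced states, and it was higher in both. In H2O2-induced cells it was 126, 97.4 and 59.9 CPM under vehicle and 230.4, 112 and 80.9 CPM under ESA. With etoposide it was 117, 83.8 and 58.5 CPM and 229, 108 and 75.1 CPM. The group ranges overlapped in both states, but each ESA library was above the vehicle library of its number, and replicate 1 rose most. The log2 fold changes were 0.52 ± 0.14 (SE; adjusted p = 0.0482) and 0.58 ± 0.14 (SE; adjusted p = 0.0407). Both calls were lost without the replicate block and with the state fitted alone (adjusted p = 0.132 and 0.207). Each was also lost when single libraries were left out: with H2O2 without any 1 of vehicle 1, 2 and 3 and ESA 1 and 3, and with etoposide without vehicle 1 or 2 or ESA 1. Ch25h also rose in both, at 8.60, 2.31 and 5.41 CPM under vehicle and 43.2, 5.44 and 9.94 CPM under ESA with H2O2, and 9.11, 2.15 and 4.30 CPM and 39.5, 5.64 and 10.1 CPM with etoposide. In both states replicate 1 was far above the others. Its log2 fold changes were 1.61 ± 0.26 (SE; adjusted p = 0.00114) and 1.64 ± 0.26 (SE; adjusted p = 0.00168). Without the block no gene was called in either state, Ch25h included, and Ch25h was not refitted without single libraries. Abca1 stood at -0.07 (adjusted p = 0.855) and 0.10 (adjusted p = 0.756), and Mylip at -0.22 (adjusted p = 0.348) and -0.25 (adjusted p = 0.351).

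ESA-Me in induced cells gave no call among the 30 by edgeR. For H2O2 (0.13% of all genes lower and 0.685% higher) 1 SREBP2 target was lower at an unadjusted p under 0.05 and the median was -0.05. For etoposide (0.0124% lower and 0.272% higher) 3 were lower at that p and the median was -0.12; without etoposide vehicle replicate 3, 6 were called. DESeq2 called no SREBP2 target in either state and called Soat1 higher in both. In edgeR Soat1 was at 0.46 (adjusted p = 0.112) and 0.55 (adjusted p = 0.0786), and Ch25h at 1.44 (adjusted p = 0.00820) and 1.29 (adjusted p = 0.0231).

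Whether ESA acted differently in induced and uninduced cells was tested as the difference of the changes. For H2O2 minus uninduced, all 21 SREBP2 targets were positive, with a median of 0.42 (0.02 for all genes), but edgeR called 0 and DESeq2 called 0, with 12 at an unadjusted p under 0.05. The 1 gene of the 30 called was Abca1, at -0.74 ± 0.15 (SE; adjusted p = 0.0274), where 0.259% of all genes were called in either direction. That difference joined a rise in uninduced cells to values of 27.7, 23.1 and 43.1 CPM under vehicle and 25.9, 22 and 41.7 CPM under ESA with H2O2, which overlapped as groups but were lower under ESA in 3 of 3 pairs. It was lost in 8 of the fits that left out 1 library, and without the block it was not called.

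For etoposide minus uninduced, the median of the 21 was 0.45 (0.01 for all genes), 14 were higher at an unadjusted p under 0.05, and Fdft1 was called, at 0.60 ± 0.15 (SE; adjusted p = 0.0389), beside 0.722% of all genes in either direction. Its values in etoposide-induced cells were 36.8, 41.7 and 37.4 CPM under vehicle and 32.1, 33.5 and 46.3 CPM under ESA, overlapping, with replicate 3 higher and the others lower. The call was lost in 6 of the fits that left out 1 library, with the compared states fitted alone (adjusted p = 0.105) and without the block. DESeq2 called 7 SREBP2 targets here and Abca1 in the opposite direction, where it called 146 of all genes lower and 70 higher. Hmgcs1 stood at 0.72 (adjusted p = 0.0985), Stard4 at 0.73 (adjusted p = 0.111) and Cyp51 at 0.61 (adjusted p = 0.0650) in edgeR. For ESA-Me no gene of the 30 was called by edgeR or DESeq2 in either state, beside 0% of all genes in both, with 4 (H2O2) and 6 (etoposide) SREBP2 targets higher at an unadjusted p under 0.05 and medians of 0.19 and 0.17. The differences of both induced states share the uninduced libraries. In them, too, the inducer, time in culture and preparation cannot be told apart.

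Adding Fer-1 in induced cells moved single genes of the pathway. For ESA with H2O2, Acat2 was called higher at 0.47 ± 0.13 (SE; adjusted p = 0.0327) (1.04% of all genes higher and 2.99% lower), with 15.9, 16.3 and 18.5 CPM under ESA plus Fer-1 and 9.73, 12.7 and 14.5 CPM under ESA. The 3 Fer-1 libraries lay above the 3 ESA libraries. At an unadjusted p under 0.05, 11 of 21 were higher and DESeq2 called 5. For ESA-Me with H2O2, Insig1 was called at 0.54 ± 0.14 (SE; adjusted p = 0.0371) (0.451% higher and 1.64% lower), from 14.9, 26.1 and 33.3 CPM to 29.1, 38.3 and 36.2 CPM, which overlapped, with replicate 1 rising most. With the H2O2 state fitted alone, edgeR did not call Insig1 (adjusted p = 0.157) and called Fdps instead (adjusted p = 0.0341). For ESA with etoposide edgeR called 0 of 21 (0.463% higher and 1.86% lower), with 4 higher at an unadjusted p under 0.05 and 0 called by DESeq2. For ESA-Me with etoposide, Acat2 at 0.52, Nsdhl at 0.38 and Sqle at 0.32 were higher (1.74% higher and 2.58% lower), and DESeq2 called 5. Acat2 went from 11, 13.2 and 14.7 CPM to 18.4, 17 and 20.1 CPM, without overlap. With the etoposide state fitted alone, edgeR called none of Acat2, Nsdhl and Sqle (adjusted p = 0.229, 0.154 and 0.160). Every SREBP2 call of this paragraph was also lost when certain single libraries were left out.

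In each of the 6 comparisons that added Fer-1, 3 states with 2 compounds, all 21 SREBP2 targets had a positive log2 fold change. The medians in uninduced, H2O2-induced and etoposide-induced cells were 0.52, 0.27 and 0.20 for ESA and 0.38, 0.32 and 0.30 for ESA-Me, beside medians of all genes at or under 0.02. Soat1 was called lower in all 6, with log2 fold changes from -0.80 (ESA, uninduced) to -0.49 (ESA-Me, etoposide). Mylip was called higher in 3, both comparisons of uninduced cells and ESA-Me with etoposide at 0.57 (adjusted p = 0.00148). Ch25h was lower in all 6, from -2.01 (ESA, H2O2) to -1.52 (ESA-Me, uninduced). Without the block all 6 Soat1 calls, the 3 Mylip calls and every SREBP2 call were lost. With the compared state fitted alone, Soat1 was not called for ESA-Me with H2O2 (adjusted p = 0.0758), ESA with etoposide (0.137) and ESA-Me with etoposide (0.154), nor Mylip for ESA-Me with etoposide (0.0973). Leaving out single libraries lost each Soat1 call but that for ESA in uninduced cells. Ch25h is not a member and was not followed in the fits that left out a library. Without the block no gene was called for Fer-1 added to ESA-Me in uninduced or H2O2-induced cells. The same held for Fer-1 added to ESA with etoposide, so the Ch25h calls there were lost.

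Compound plus Fer-1 against vehicle called 0 of the 30 genes in the induced states, by edgeR and by DESeq2. For ESA the share of all genes called was 0% with H2O2 and 0% with etoposide, and for ESA-Me 0% and 0.00618%. At an unadjusted p under 0.05, 2 SREBP2 targets were higher for ESA with H2O2, 7 for ESA-Me with H2O2, 0 for ESA with etoposide and 9 for ESA-Me with etoposide. The medians were 0.13, 0.23, 0.11 and 0.17 in that order. Without etoposide vehicle replicate 3 the last comparison had 7 called higher.

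Set against the vehicle library of the same number, the mean of the 21 SREBP2 targets (log2 of CPM + 0.5) summarises each library. In uninduced cells it stood at -0.35, -0.73 and -0.46 under ESA in replicates 1, 2 and 3, at -0.13, -0.43 and -0.28 under ESA-Me, and at 0.20, -0.11 and 0.04 under ESA plus Fer-1. All 6 libraries with a compound alone were below their vehicle, and those with ESA plus Fer-1 lay on either side of it. In H2O2-induced cells it was -0.33, -0.05 and -0.06 under ESA, so replicate 1 stood apart, and in etoposide-induced cells -0.22, -0.16 and 0.07. The mean of the 3 LXR targets in uninduced cells was 0.03, 0.52 and 0.14 under ESA, above vehicle in each pair although Mylip fell. With ESA plus Fer-1 it ranged from 0.18 to 0.36. Abca1 was then still above its vehicle library in each pair, as under ESA, while Mylip was now above its vehicle library too. Abcg1 was above in replicates 1 and 2 and below in replicate 3. None of the 3 was called against vehicle. The mean of the LXR targets thus joins genes that moved in opposite directions under ESA, and the difference between the lists was not tested.

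**Figure D4:**
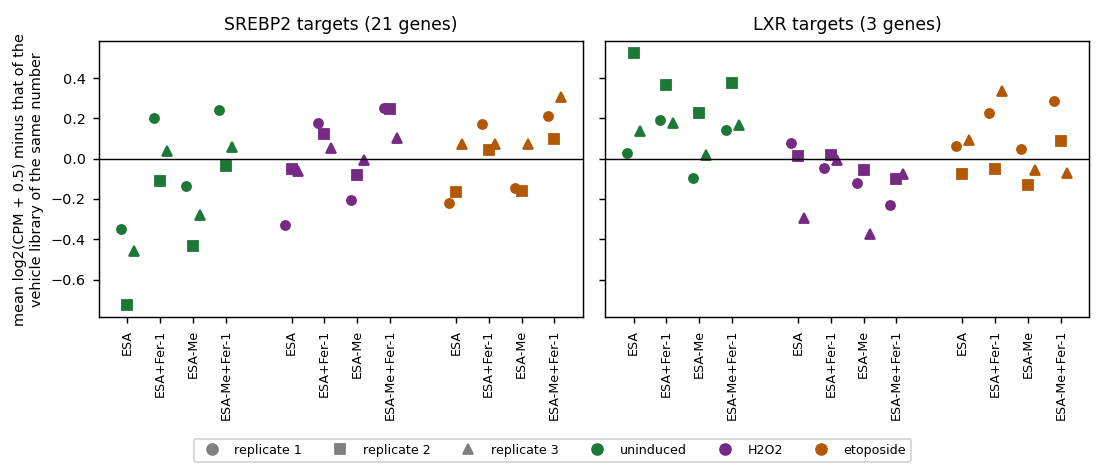
Mean log2(CPM + 0.5) of the 21 SREBP2 targets and of the 3 LXR targets in each library minus that of the vehicle library of the same replicate number and state; points are libraries and the line at 0 is vehicle. In uninduced cells the SREBP2 targets under ESA lie between -0.73 and -0.35 and those under ESA plus Fer-1 between -0.11 and 0.20.

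Across all 45 libraries, the replicate number within a state accounted for a median of 38.2% of the variance of log2 CPM of the 30 genes, treatment within a state for 26.2%, the state for 15.9% and the rest for 11.9%. The tests that pair libraries by number take the first of these parts out of the spread.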

How the data were processed

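The deposited table holds raw read counts per gene and library, as the authors made it; per the submitters' processing notes the tools were FastQC, HISAT2 2.1.0, featureCounts and edgeR on GRCm38, with roles and settings not given in the sources used here. Per the labels' protocols RNA was extracted with Trizol and libraries were made with a stranded total RNA kit; the strand setting of the counting is not given, so reads of a gene and an antisense partner cannot be told apart. Symbols are those of the table, and positions and exon lengths are from GENCODE M21.

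Counts were tested in R 4.3.3 with edgeR 4.0.16: genes kept by filterByExpr (16194, with 99.9% of counts), TMM scaling, and 1 robust quasi-likelihood model of all 45 libraries with 15 groups and the replicate number nested in state as a block. Comparisons between states under vehicle used the model without the block. That model treats libraries of a state that share a replicate number as independent, although they moved together, so its p-values may be too small. P-values were two-sided and Benjamini-Hochberg adjusted over all genes within a comparison, and a gene was called at an adjusted p under 0.05; 24 comparisons were made. The pairing comes from the replicate numbers in the labels and was checked in the data: within a state the correlation of deviations was 0.259 to 0.820 for the same number. The common dispersion was 0.0102 with the block and 0.0722 without it. Errors of fold changes are standard errors, and errors of CPM and RPKM are standard deviations over 3 libraries. The procedure was tested on simulated data.

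The members and lists were chosen with earlier results of these data known. All 30 members may be named in each comparison; of 38 further pathway genes, up to 3 called genes with the highest and up to 3 with the lowest fold change are named. Alternatives were DESeq2 1.42.0 (Wald test), its size factors in edgeR, no filter on low counts, no replicate block, a block shared by all states, the compared groups alone, and each library left out in turn. Depth limits the rare transcripts: Abcg1 had 2 to 65 counts per library and Nr1h3 0 to 37.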

Additional observations from a re-analysis of the deposited data

Results flagged for a closer look

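The change of Abca1 under ESA differed between H2O2-induced and uninduced cells by -0.74 (log2; edgeR quasi-likelihood test, adjusted p = 0.0274), with 3 of 3 uninduced pairs higher under ESA and 3 of 3 H2O2 pairs lower. The call was lost in 8 fits without 1 library, and in the fit without the block.

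Fdft1, the squalene synthase gene, differed by 0.60 (log2; adjusted p = 0.0389, edgeR) between the ESA changes of etoposide-induced and uninduced cells, a fall in 3 of 3 uninduced pairs and in 2 of 3 etoposide pairs. That call was lost in 6 fits without 1 library, with the compared states alone (adjusted p = 0.105) and in the fit without the block.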

How the results depend on the processing

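Values are counts of the 21 SREBP2 targets called, and no member's called fold change reversed under any alternative run. Without the replicate block, the count became 0 for ESA (19) and ESA-Me (1) against vehicle in uninduced cells, for Fer-1 added to ESA in uninduced (19) and H2O2-induced cells (1), for Fer-1 added to ESA-Me in uninduced (9), H2O2-induced (1) and etoposide-induced cells (3), and for the ESA difference of etoposide minus uninduced cells (1). The block moved no other count of SREBP2 targets. In all genes the fit without it called 3 lower and 20 higher for ESA in uninduced cells. DESeq2 gave 7 for the ESA difference of etoposide minus uninduced, 5 for Fer-1 added to ESA with H2O2, 5 for Fer-1 added to ESA-Me with etoposide, 1 for ESA with etoposide, and 2 for ESA-Me and 10 for Fer-1 added to ESA-Me in uninduced cells. Over all genes, in the same order, DESeq2 called 216, 960, 914, 216, 455 and 857 in either direction. DESeq2 size factors in edgeR gave 3 for Fer-1 added to ESA with H2O2 and 18 for ESA in uninduced cells, where Tm7sf2 was lost (adjusted p = 0.0513), and moved no other count. With the compared state alone that count was also 3, Fer-1 added to ESA-Me gave 0 with etoposide and 16 in uninduced cells, and in uninduced cells ESA-Me gave 10, ESA 20 and Fer-1 added to ESA 21. The compared states alone gave 2 for the ESA difference of H2O2 minus uninduced, and the vehicle groups alone 2 for H2O2 against uninduced (5). Without the filter on low counts the ESA differences were 3 (H2O2) and 5 (etoposide), the ESA-Me difference 1 (etoposide), Fer-1 added to ESA with H2O2 3, Fer-1 added to ESA-Me 2 (H2O2) and 8 (etoposide), ESA-Me plus Fer-1 against vehicle with etoposide 5, ESA with etoposide 1, H2O2 against uninduced 4 and, in uninduced cells, ESA-Me 4, ESA 17 and Fer-1 added to ESA-Me 12. The cause was not tested in any of these. No share over all genes is given for the fits with DESeq2 size factors, without the filter, or of the compared groups alone.

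Leaving out each library in turn gave, for ESA against vehicle, 14 to 18 in uninduced and 0 to 3 in etoposide-induced cells; for ESA-Me, 0 to 1 and 0 to 6. Fer-1 added to ESA gave 16 to 19 in uninduced and 0 to 3 in H2O2-induced cells, and Fer-1 added to ESA-Me 0 to 4 (uninduced), 0 to 2 (H2O2) and 0 to 2 (etoposide). Against vehicle with etoposide, ESA plus Fer-1 gave 0 to 1 higher, and ESA-Me plus Fer-1 0 to 7 higher and 0 to 1 lower, the extremes without etoposide vehicle replicate 3. The ESA differences gave 0 to 1 (H2O2) and 0 to 5 (etoposide), and senescence 0 to 5 (H2O2) and 1 to 3 (etoposide). Among the fold changes of members refitted without 1 library, 155 lost and 53 gained a call and 4832 did neither.

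There were 3 libraries a group, and p-values measure the spread of these libraries left after the block. The smallest called falls in uninduced cells were near -0.32 (log2), and the median falls of the induced states were smaller. Genes at the depth of Abcg1 and Nr1h3 allow no firm statement.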
